A study of Mus musculus with 9 samples.

Results

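The marrow of NZBWF1 mice was compared with that of NZB mice, one of the 2 inbred parents of this F1 hybrid. Barcodes with under 1000 UMIs or 500 genes, or over 10% mitochondrial UMIs, were left out, and the comparison used the 6 mice of these strains among the 9 of the series. This left 24649 of 39051 cells, with 10847 from NZB and 13802 from NZBWF1. The NZBWF1 mice are labelled SLE in the deposited list. All 9 mice were female, 9 to 10 weeks old and untreated, and cells came from femur marrow with 1 library of transcript 3' ends per mouse. No transgene or engineered allele is named for any group. NZBWF1 mice carry 1 haploid genome of NZB and 1 of NZW, so every difference below lies between a homozygous parent and its hybrid. The third strain, NZW, entered the fits to share an estimate of the spread between mice. Its cells also entered the clustering, and its mice the filter and scaling of genes. All animals were bought from a single supplier and arrived together. Reads were counted on the mm10 reference, which is of the C57BL/6 strain, so that genes at which these strains differ from it may be counted unevenly.

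The hybrid is a long-used model of lupus, in which antibodies against nuclear antigens appear with age. B cells arise in the marrow from pro-B cells, which rearrange the heavy chain gene with the Rag recombinase. They pass through dividing pre-B cells, which carry the pre-B receptor, and small pre-B cells, which rearrange the light chain. Type I interferon, the cytokine most often linked to lupus, induces a set of antiviral effector genes.

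Kept cells per mouse ranged from 2455 to 5108 in NZB and from 2566 to 5684 in NZBWF1, and total UMIs from 8738514 to 15903050 and from 8106539 to 18663189. Median UMIs per cell were 2475, 2536.5, and 2410 in NZB and 2182.5, 2293.5, and 2190 in NZBWF1, without overlap (two-sided exact permutation p = 0.1, the smallest that 3 mice against 3 allow). The median mitochondrial percent was 3.69, 3.97, and 2.95 in NZB and 4.65, 4.32, and 4.53 in NZBWF1, also without overlap (exact permutation p = 0.1). Depth and mitochondrial percent therefore moved with strain, and their part in the results below was not tested beyond stricter limits on both. Of the kept barcodes of each of the 6 libraries, at most 0.991% occurred in another of the 9 libraries as well. Free RNA in the 6 libraries came to 0.587% to 1.13% of the median cell. No batch was named in the labels, although the study's methods mention batches without saying which mice they held.

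B-cell-like cells made up a larger part of the hybrid marrow. The class, named by Cd79a, Ebf1, Pax5, and other markers, took 8.23%, 5.29%, and 8.40% of the cells in the NZB mice and 30.5%, 17.3%, and 30.6% in the NZBWF1 mice. Each hybrid mouse was above each parent mouse, with means of 7.31% ± 1.75 and 26.2% ± 7.66 (SD, n = 3 mice each). The log2 fold change in cell number was 1.84 (SE 0.32, 95% confidence interval 1.21 to 2.48, adjusted p = 0.00183, edgeR quasi-likelihood test, Benjamini-Hochberg over 13 classes), a 3.58-fold difference. Of the 13 classes, 2 were called (15.4%).

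**Figure D1:**
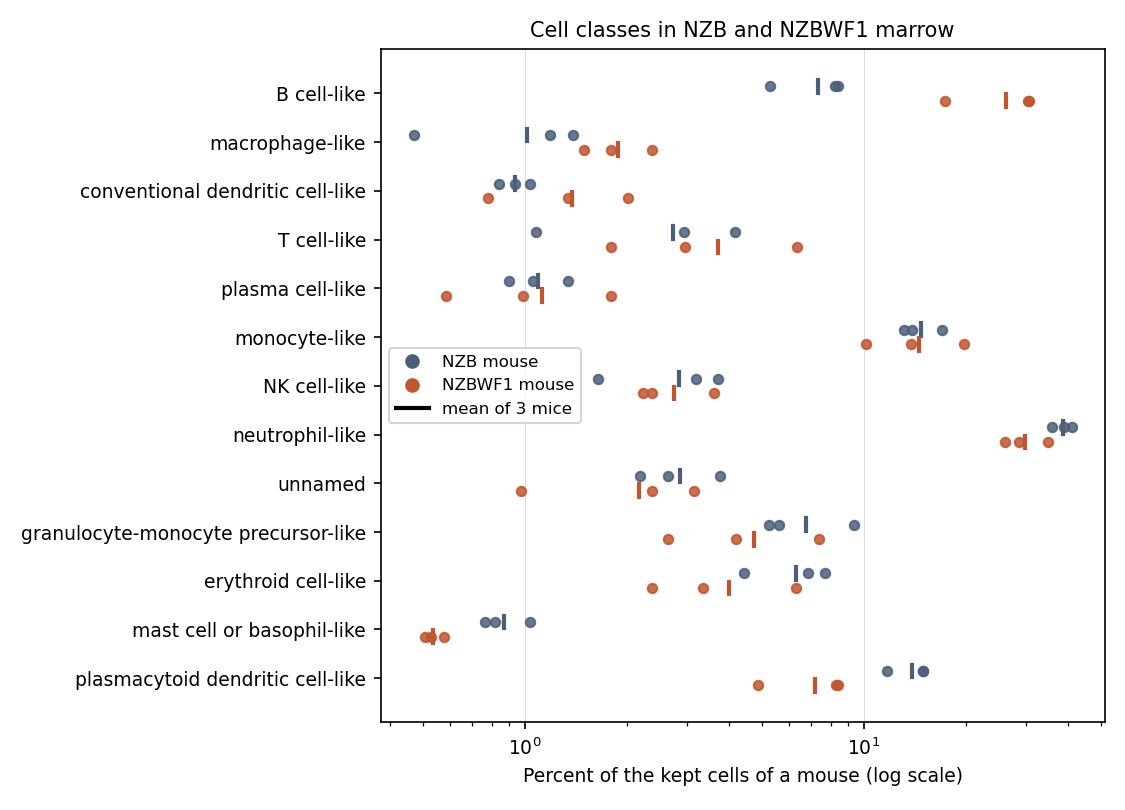
Percent of the kept cells of a mouse (log scale) in each of 13 classes, ordered by the fitted change, with 1 point per mouse and a bar at the mean of 3 mice. The B-cell-like points of NZBWF1 lie between 17.3% and 30.6%, above all NZB points, and the plasmacytoid dendritic-cell-like points lie between 4.87% and 8.37%, below all NZB points.

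Plasmacytoid dendritic-cell-like cells, the professional producers of type I interferon, were the other class called. They formed 14.9%, 15%, and 11.7% of NZB cells and 4.87%, 8.29%, and 8.37% of NZBWF1 cells. The groups did not overlap, and the log2 fold change was -0.94 (SE 0.28, adjusted p = 0.0426, edgeR quasi-likelihood test). This call was lost when B-cell-like and plasma-cell-like cells were left out of the total (log2 fold change -0.61, adjusted p = 0.184), with 6 mice in the fit, with a minimum of 2000 UMIs and 1000 genes (-0.27), and without any single mouse other than NZBWF1 mouse 2. The other 11 classes were not called. Among them, macrophage-like cells were 1.38%, 0.470%, and 1.19% against 1.79%, 1.5%, and 2.38% (log2 fold change 0.93, adjusted p = 0.113, edgeR). Mast-cell-or-basophil-like cells were 0.815%, 0.764%, and 1.04% against 0.507%, 0.576%, and 0.528% (-0.69, adjusted p = 0.113, edgeR). Neutrophil-like cells, the largest class over the 6 mice together, were 39.0%, 36.0%, and 41.0% against 34.8%, 28.6%, and 26.0% (-0.38, adjusted p = 0.341, edgeR). Plasma-cell-like cells, which secrete antibody, differed by 0.06 on the log2 scale (95% confidence interval -0.70 to 0.83), and monocyte-like cells by -0.01 (-0.59 to 0.57).

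The B lineage was divided by stage markers. Dividing pre-B-cell-like cells were 1.02%, 1.47%, and 1.58% of all cells in NZB and 3.31%, 3.66%, and 8.57% in NZBWF1. Pro-B-cell-like cells were 0.937%, 0.607%, and 1.46% against 3.04%, 3.62%, and 2.73%. Small pre-B-cell-like cells were 0.774%, 0.0196%, and 0.335% against 5.77%, 0.612%, and 4.73%. The first 2 stages did not overlap between strains, while NZBWF1 mouse 2 fell within the NZB range for small pre-B-cell-like cells. As shares of all cells, these stages rose by 1.93 (adjusted p = 0.0051), 1.65 (adjusted p = 0.0057), and 3.36 on the log2 scale (adjusted p = 0.0201, edgeR quasi-likelihood test over 5 stages). Cells of the lineage without a stage were higher by 1.99 (adjusted p = 0.0051, edgeR), but this group is mixed. Of its 1917 cells in all 9 mice, 390 formed a sub-cluster led by the neutrophil granule genes Ngp and Camp, 778 a sub-cluster led by replication genes such as Cdc6 and Mcm2, and 295 a sub-cluster with the mitotic genes Plk1 and Ccnb1 among its leading genes, so that cells with division genes also lie outside the dividing pre-B-cell-like stage. Without the sub-cluster led by Ngp and Camp, the rise of all B-cell-like cells was 1.83 on the log2 scale (adjusted p = 0.00278, edgeR). The small pre-B-cell-like number rests on few NZB cells, with 19, 1, and 11 against 148, 34, and 269. Immature-or-mature-B-cell-like cells were 4.73%, 1.23%, and 3.50% against 13.8%, 3.22%, and 8.36% (1.43, adjusted p = 0.0516, edgeR) and overlapped between strains.

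**Figure D2:**
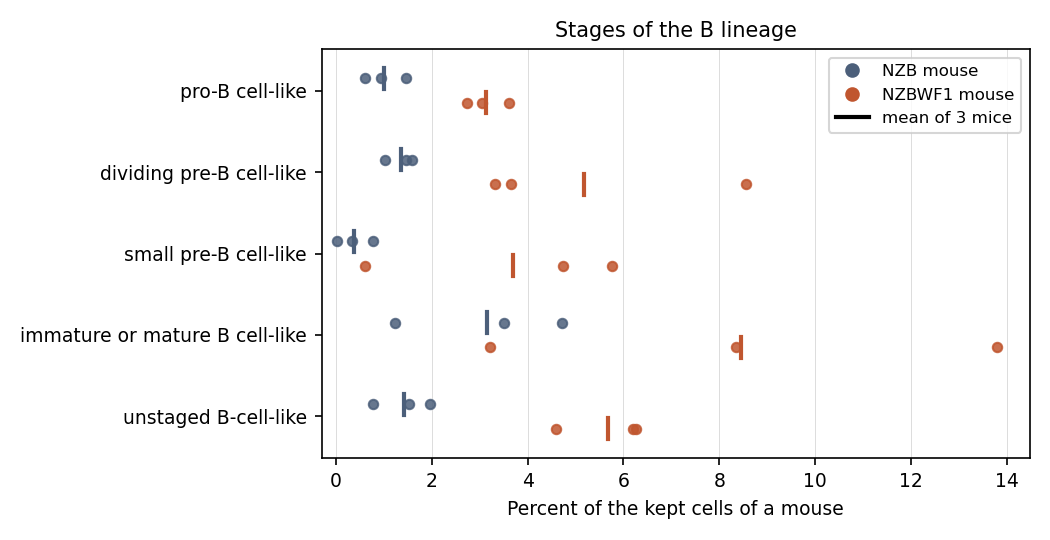
Percent of all kept cells of a mouse at each stage of the B lineage, with 1 point per mouse and a bar at the mean of 3 mice. Pro-B-cell-like and dividing pre-B-cell-like points of NZBWF1 lie above all NZB points, as do the unstaged points, which include the sub-cluster led by Ngp and Camp, and the remaining stages overlap, with 1 NZBWF1 mouse at 0.612% for small pre-B-cell-like cells.

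Within the B lineage, no stage was called among 5 (0 at adjusted p under 0.05 and 0 at an unadjusted p under 0.05, edgeR quasi-likelihood test). The share of dividing pre-B-cell-like cells among B-cell-like cells differed by 0.02 on the log2 scale (95% confidence interval -1.08 to 1.12), that of pro-B-cell-like cells by -0.02 (-1.14 to 1.09), and that of immature-or-mature cells by -0.42 (-1.52 to 0.67). Small pre-B-cell-like cells formed 9.41%, 0.370%, and 3.99% of the lineage in NZB and 18.9%, 3.54%, and 15.4% in NZBWF1 (1.5, SE 0.75, adjusted p = 0.28, edgeR). The mice varied widely within each strain at this stage, and the groups overlapped. Mouse 2 had the lowest share in both strains, and each hybrid mouse lay above the NZB mouse of the same number. No source says that these numbers pair the mice. Without NZB mouse 1, 1 of the 5 stages was called, and 1 was also called with the replicate number as a block. These intervals are wide, and a miss of the threshold does not show that the stages had equal shares.

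UMIs were then summed over all cells of a mouse and given as CPM, the UMIs of a gene relative to those of the library scaled to a common total. Whole-marrow CPM are TMM-scaled, while the CPM of class sums further below are not. Log2 fold changes are TMM-scaled in both, so in class sums they can differ from the ratio of the printed CPM. Of 12613 genes tested, 810 were higher and 595 lower in NZBWF1, or 11.1% in all (6.42% higher and 4.72% lower; edgeR quasi-likelihood test, adjusted p under 0.05). More than 2-fold differences were seen for 341 higher and 107 lower genes. Scaling by total UMIs in place of TMM moved the median of all genes by 0.117 on the log2 scale, and the share of called genes that were higher was then 82.5% in place of 57.7%. In such sums, fewer cells of a type and less RNA per cell cannot be told apart. Leaving out 1 mouse lowered the 1405 calls to 575 without NZB mouse 2, 791 without NZB mouse 3, 936 without NZBWF1 mouse 1, and 855 without NZBWF1 mouse 3.

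**Figure D3:**
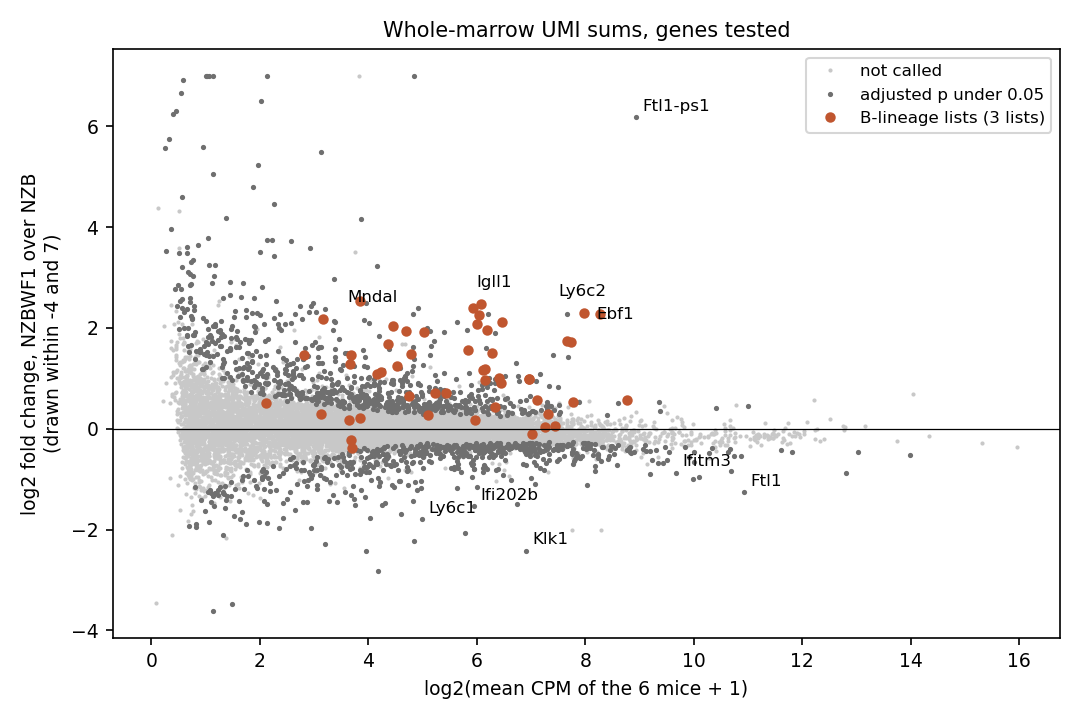
Log2 fold change of NZBWF1 over NZB (vertical, drawn within -4 and 7) against log2 of the mean CPM plus 1 of the 6 mice, for 12613 genes. Dark points are the 1405 genes called, and orange points are the members of 3 B-lineage lists, of which 8 of 14, 10 of 15, and 11 of 22 were called higher.

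Many genes of the early B lineage were higher in whole marrow. Of 14 genes of the pre-B receptor and V(D)J recombination, 8 were called higher and 0 lower, beside 6.42% of all genes called higher. The median log2 fold change of the list was 1.23, beside 0.01 over all genes. The surrogate light chain gene Igll1, which pairs with the heavy chain in the pre-B receptor, was at 17.9, 11.9, and 31.0 CPM in NZB and 135, 121, and 81.8 CPM in NZBWF1. Its lowest hybrid mouse was well above its highest NZB mouse (log2 fold change 2.48, SE 0.33, adjusted p = 0.00388, edgeR quasi-likelihood test). Vpreb1, which encodes another part of the surrogate light chain, rose by 2.12 and Vpreb3 by 2.28 on the log2 scale (adjusted p = 0.00474 and 0.00284, edgeR). Rag1, a subunit of the recombinase, was at 4.72, 2.20, and 5.09 against 30.7, 15.3, and 21.8 CPM (2.53, adjusted p = 0.00976, edgeR). Rag2 (1.45), the end-joining ligase Lig4 (2.18), the interleukin-7 receptor gene Il7r (1.17), and Xrcc6 (0.71), which encodes Ku70, were called as well. Dntt, the terminal transferase of pro-B cells, was not called (0.71, adjusted p = 0.154, edgeR).

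The start of Igll1 is shown because it is among the most raised pre-B receptor genes of the list. It is given from 250 bases before to 50 after the start in RefSeq (GRCm38.p6, chr16:16863936-16864235, minus strand), with capitals at the match to CCCNNGGG, the core of the Ebf1 motif, searched on both strands. The letters occur in 15.4% of 27025 genes with a promoter of this length, and in 1 of the 13 genes of the list with such a promoter.
Igll1: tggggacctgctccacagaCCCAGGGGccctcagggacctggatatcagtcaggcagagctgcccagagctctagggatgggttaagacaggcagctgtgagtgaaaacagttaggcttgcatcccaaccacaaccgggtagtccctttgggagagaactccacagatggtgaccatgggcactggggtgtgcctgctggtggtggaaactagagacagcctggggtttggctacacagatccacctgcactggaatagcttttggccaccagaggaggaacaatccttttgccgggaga

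Of 15 transcription factors of the B lineage, 10 were called higher and 0 lower (median 1.25), beside 6.42% of all genes called higher. Ebf1, which commits progenitors to the lineage, was at 83.5, 65.7, and 106 CPM in NZB and 444, 316, and 494 CPM in NZBWF1 (2.30, SE 0.21, adjusted p = 0.000147, edgeR quasi-likelihood test). All 3 hybrid mice lay above all 3 NZB mice. Pax5, which holds B cells to their fate, rose by 2.39 (adjusted p = 0.0047), Pou2af1 by 2.08 (adjusted p = 0.000644), Irf4 by 2.05 (adjusted p = 0.00053), and Tcf3 by 0.99 (adjusted p = 0.000121; all edgeR). Of 22 genes of B-cell receptor signalling, 11 were called higher and 0 lower (median 1.04). They included the receptor chains Cd79a (1.75) and Cd79b (1.73), the adaptor Blnk (1.19), the kinase Blk (1.68), and the inhibitory Fc receptor Fcgr2b (0.64). Ms4a1, which encodes CD20, was not called (1.5, adjusted p = 0.101, edgeR).

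Within B-cell-like sums, where 0.221% of 9953 genes were called higher, few of these genes passed the test. Of the 14 pre-B receptor and recombination genes 0 were called (edgeR, 1 at an unadjusted p under 0.05, median 0.24), and of the 15 transcription factors 0 were called (9 at an unadjusted p under 0.05, median 0.31). Of the 22 receptor signalling genes 0 were higher and 1, Fcrl1, was lower (-1.42, adjusted p = 0.0437, edgeR, median -0.10). When B-cell-like and plasma-cell-like cells were left out of the whole-marrow sums, 4 of 14, 6 of 15, and 7 of 22 were still called higher, beside 315 of 12220 of all genes, among them Ebf1 (2.35) and Pou2af1 (1.97). Over all genes, 256 of the 751 higher genes and 132 of the 594 lower genes that could be tested remained called in the same direction without these cells, and 728 and 594 kept their sign. Of the 810 higher and 595 lower genes, 364 and 405 were called the same way in the sums of at least 1 class.

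B-lineage transcripts were also measured in cells of other classes. In neutrophil-like sums, where 607 of 8720 genes were called (6.96%, with 3.85% higher and 3.11% lower), 13 of 14 B-lineage transcription factors were higher (median 2.07). A single cluster of that class, which listed Retnlg and Cxcr2 but also the B-cell gene Ms4a1 among its 10 leading genes, held 2.51%, 3.43%, and 2.45% of neutrophil-like cells in NZB and 6.72%, 8.25%, and 12.2% in NZBWF1. Without this cluster, 256 genes were called in neutrophil-like sums, and of 5 B-lineage transcription factors that could still be tested 0 were called and 0 had an unadjusted p under 0.05 (edgeR). Since a B-cell gene is among its leading genes, leaving it out removes B-lineage transcripts by construction. No origin of these transcripts is read from the counts without it. In monocyte-like sums 11 of 15 were higher (median 1.81, beside 8.42% of all genes called higher), 10 of 14 after doublets were removed, and 10 of 14 without the cluster of that class whose second score was for B cells. The part of cells captured together in these counts was not tested further.

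The genes named next differed in whole marrow without belonging to a B-lineage list. Ftl1, the ferritin light chain that stores iron with Fth1, was at 3093, 2623, and 2562 CPM in NZB and 1073, 1169, and 1222 CPM in NZBWF1 (-1.26, SE 0.12, adjusted p = 2.67e-05, edgeR quasi-likelihood test). Ftl1-ps1, a near-identical copy on chromosome 13, was at 15, 13.2, and 11.8 against 875, 957, and 1064 CPM (6.18, SE 0.13, adjusted p = 4.37e-12, edgeR). The pair moved in opposite directions with no overlap of mice. The count of each copy alone is uncertain, since reads of near-identical copies may not be told apart. How such reads were counted was not tested, so the sum of the copies may be incomplete as well. Summed, they were at 3108, 2636, and 2574 against 1948, 2126, and 2286 CPM, still without overlap and lower in NZBWF1 (-0.39, SE 0.10, adjusted p = 0.0291, edgeR). Ftl1-ps1 was called higher in 12 of 12 classes and Ftl1 lower in 11 of 12. Within classes the summed pair was called lower in monocyte-like sums (-0.26, adjusted p = 0.0496) and plasmacytoid dendritic-cell-like sums (-0.42, adjusted p = 0.00311, edgeR). In macrophage-like sums it was at 7146, 7573, and 5167 against 7611, 9381, and 10409 CPM, without overlap and without a call (0.45, adjusted p = 0.485, edgeR), and in conventional dendritic-cell-like sums the difference was 0.13. Fth1, the heavy chain, was at 3652, 3480, and 3527 against 2607, 2769, and 2633 CPM (-0.41, adjusted p = 0.0156, edgeR).

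**Figure D4:**
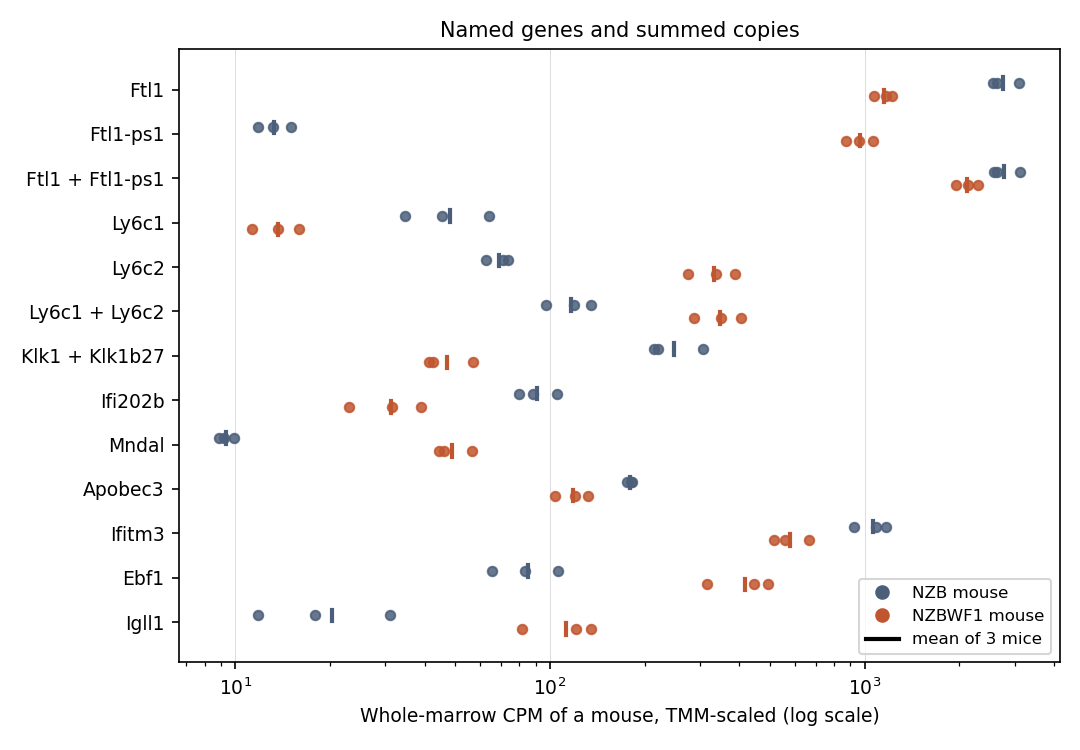
Whole-marrow CPM of each mouse (log scale, TMM-scaled) for named genes and for copies summed, with bars at the means of 3 mice. Ftl1 and Ftl1-ps1 lie on opposite sides in the 2 strains, and their sum lies between 1948 and 2286 CPM in NZBWF1 and between 2574 and 3108 CPM in NZB.

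Ly6c2, a surface antigen of monocytes, was at 70.8, 73.6, and 62.7 CPM in NZB and 275, 388, and 336 CPM in NZBWF1 (2.27, adjusted p = 1.31e-07, edgeR quasi-likelihood test). Its neighbour Ly6c1 was at 64.1, 45.5, and 34.6 against 11.3, 16.0, and 13.7 CPM (-1.79, adjusted p = 0.000558, edgeR), and the pair summed was higher in NZBWF1 (1.57, adjusted p = 2.23e-05, edgeR). In neutrophil-like sums Ly6c2 was at 0.339, 0.209, and 1.11 CPM in NZB and at 284, 304, and 341 CPM in NZBWF1, with the NZB mice close to 0 (8.90, adjusted p = 2.94e-15, edgeR). The kallikreins Klk1 and Klk1b27, secreted serine proteases, were lower, at 307, 220, and 214 CPM summed in NZB and 42.6, 41.3, and 57.1 CPM in NZBWF1 (-2.39, adjusted p = 2.23e-05, edgeR). Both are among the leading genes of a plasmacytoid dendritic-cell-like cluster. That cluster held 12.3%, 10.9%, and 9.04% of cells in NZB and 4.13%, 5.51%, and 6.46% in NZBWF1. Within plasmacytoid dendritic-cell-like sums the pair was at 2776, 2525, and 2705 against 946, 726, and 913 CPM (-1.68, adjusted p = 1.77e-17, edgeR). The part of the cluster's share in the whole-marrow change was not tested.

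Genes of the Ifi200 cluster on chromosome 1, which encode interferon-inducible DNA sensors and regulators, moved in both directions. Of 12 tested, 6 were higher and 2 lower (median 0.55), beside 6.42% and 4.72% of all genes. Ifi202b was at 88.1, 105, and 79.8 against 23, 39, and 31.6 CPM (-1.53, adjusted p = 0.00172, edgeR quasi-likelihood test). Mndal was at 9.92, 9.19, and 8.90 against 44.5, 46.0, and 56.4 CPM (2.40, adjusted p = 1.15e-07, edgeR). Neither overlapped between strains. Ifi203 rose by 0.78 and Ifi206 by 1.98 on the log2 scale, and members of this cluster share sequence, so that reads may be split between them.

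Ighg2c, the constant region of an IgG subclass, held 1 UMI over the 3 NZB mice and 2534 over the 3 NZBWF1 mice, at 50.1, 66.8, and 48.3 CPM in the latter. The pooled ratio was 1917 (95% counting interval 344 to 75732, counting error only). The pair Ighg2b and Ighg2c summed was at 1.57, 0.866, and 3.91 CPM in NZB and 67.0, 105, and 61.8 CPM in NZBWF1 (5.25, adjusted p = 0.0168, edgeR quasi-likelihood test), while Ighg2b alone was not called (3.51, adjusted p = 0.082, edgeR). Across 12 immunoglobulin constant regions, Ighg2c was the 1 called, beside 6.42% of all genes called higher, which is no result about the list. Without B-cell-like and plasma-cell-like cells, 4 of 9 were called higher (median 0.89), to be read beside the count of all genes given above for that run. The part of free RNA and of cells captured together in this count was not tested. In plasma-cell-like sums the pair Ighg2b and Ighg2c was at 0, 0, and 0 against 2807, 2789, and 893 CPM. It was not called there (adjusted p = 0.679, edgeR). In B-cell-like sums the pair was at 19.9, 17.6, and 36.7 CPM in NZB and 42.8, 45.2, and 25.6 CPM in NZBWF1. These values overlapped and gave no call (0.43, adjusted p = 0.916, edgeR).

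Other genes of smallest p that rose were the histone Hist1h4i (4.16), 1700097N02Rik (3.23), Kansl1l (1.26), the clock factor Arntl (1.62), Lrmp (1.47), Nosip (0.95), and the cell cycle inhibitor Cdkn2c (1.38). Those that fell included Siglech, a lectin of plasmacytoid dendritic cells (-1.5), Spp1, which encodes osteopontin (-1.11), Tpm3-rs7 (-0.98), the stress gene Gadd45g (-1.14), Lmo1 (-0.92), BC023719 (-1.05), the lipid droplet protein Plin2 (-0.80), the protease Ctsc (-1.10), and Ifitm3 (-0.87), which blocks viral entry. All were chosen among genes whose groups did not overlap, a property of 31.9% of all genes tested, so that nothing is read from it. Arntl was among the leading genes of B-cell-like clusters, and Siglech of plasmacytoid dendritic-cell-like clusters. The part of the shares of these classes in the changes was not tested here. Tpm3-rs7 summed with its parent gene Tpm3 was not called (-0.28, adjusted p = 0.0612, edgeR quasi-likelihood test).

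Apobec3, which restricts retroviruses, was at 180, 182, and 175 CPM in NZB and 132, 104, and 120 CPM in NZBWF1 (-0.60, adjusted p = 0.00362, edgeR quasi-likelihood test), and was lower in 5 classes. MHC class I genes were divided, with H2-T22 (0.95), H2-T23 (0.86), and H2-Q4 (0.63) called higher and H2-Q7 lower (-0.75) among 13. Of all genes, 6.42% were called higher and 4.72% lower. Among neutrophil and precursor granule proteins, 5 of 17 were lower and 0 higher (median -0.36), beside 4.72% of all genes called lower. Lcn2 was at 9651, 8591, and 9632 against 5441, 4847, and 4928 CPM (-0.87, adjusted p = 0.00552, edgeR), and Ngp (-0.53) and Lyz2 (-0.46) were also called. Without B-cell-like and plasma-cell-like cells 0 of the 17 were called (median -0.03). Lower genes were also found among Toll-like receptors and adaptors (3 of 11, Irak4, Tlr7, and Tlr4), cathepsins (4 of 11), and immediate early and heat shock genes (4 of 14, with Fos at -1.44), and 0 genes of these 3 lists were higher, beside 4.72% of all genes called lower. Without B-cell-like and plasma-cell-like cells, 0 Toll-like receptor and adaptor genes, 1 cathepsin, and 1 immediate early or heat shock gene were lower, and 1 cathepsin was higher. The medians of these lists went from -0.43 to -0.19, from -0.30 to -0.05, and from -0.18 to -0.25. Complement and macrophage genes had 4 of 18 higher and 1 lower (median 0.57), beside 6.42% of all genes called higher and 4.72% lower. Those higher were Axl (0.93), C1qc (0.63), C1qb (0.67), and Vcam1 (0.47). With B-cell-like and plasma-cell-like cells left out, 7 were higher and 0 lower (median 0.89), to be read beside the count of all genes given above for that run. The 4 genes named are leading genes of the macrophage-like cluster, which formed 1.38%, 0.470%, and 1.19% of cells in NZB and 1.79%, 1.49%, and 2.38% in NZBWF1 (adjusted p = 0.113, edgeR), and the part of this share in the change was not tested. Of 11 genes tested in the Fc receptor and SLAM family list, Slamf6 (1.92), Slamf7 (1.59), Slamf1 (0.71), and Fcgr2b were higher and Fcgr3 was lower (-0.46), beside 6.42% of all genes called higher. Without B-cell-like and plasma-cell-like cells, 1 of the 11 was higher and 0 lower (median 0.25 against 0.35).

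No gene was called among 21 of globin, haem, and red cell membrane, 20 of cell division, 13 of the mitochondrial genome, 7 of megakaryocytes, or 9 of mast cells, basophils, and eosinophils. Hbb-bs and Hba-a1 differed by -0.07 and -0.32, Top2a and Mki67 by 0.01 and 0.02, mt-Co3 and mt-Atp6 by 0.05 and 0.04, Pf4 and Itga2b by -0.82 and -0.52, and Prss34 and Mcpt8 by -0.66 and -0.78 on the log2 scale. Single calls in small lists, set beside 6.42% of all genes called higher and 4.72% lower, are no result about the list. T-cell genes gave Cd3d higher (1.63) and Cd4 lower (-0.87) among 12, although Cd4 was at 0.11 with a minimum of 2000 UMIs and 1000 genes. Without B-cell-like and plasma-cell-like cells 0 of the 12 were called (median 0.68). NK-cell and cytotoxic genes gave Nkg7 lower (-0.52) among 12.

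Interferon-stimulated effector genes gave few calls in whole marrow. Of 32 tested, 0 were higher and 4 lower (median -0.09; edgeR quasi-likelihood test, 7 at an unadjusted p under 0.05), namely Bst2 (-0.69), Ifi44 (-1.26), Ifi35 (-0.33), and Trim30a (-0.37), beside 4.72% of all genes called lower. Bst2 was also among the leading genes of a plasmacytoid dendritic-cell-like cluster. Without B-cell-like and plasma-cell-like cells 1 was higher and 0 lower (median 0.05). DESeq2 called 1 higher and 4 lower. The direction was not stable, since with at most 5% mitochondrial UMIs 2 were higher and 0 lower (median 0.22), and with total-UMI scaling 1 was higher and 2 lower (median 0.02). The summed level of the list was 937 to 1172 CPM in NZB and 870 to 1011 CPM in NZBWF1.

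In monocyte-like sums the same list had 21 of 31 genes higher and 0 lower, with a median of 0.93 beside 0.01 over all genes. Of 9487 genes tested in these sums, 17.2% were called (799 or 8.42% higher, 837 or 8.82% lower). Ifit3, an interferon-induced antiviral gene, was at 0.785, 1.12, and 0.671 CPM in the NZB mice and 16.3, 36.6, and 54.1 CPM in the NZBWF1 mice. The parent was near the limit of detection and every hybrid mouse well above it (5.30, SE 0.78, adjusted p = 0.00293, edgeR quasi-likelihood test). Isg15, a ubiquitin-like modifier, was at 30.6, 25, and 10.1 against 47.8, 55.0, and 65.4 CPM (1.35, SE 0.25, adjusted p = 0.00167, edgeR). Rsad2, which encodes the antiviral enzyme viperin, was at 3.92, 4.85, and 5.37 against 14, 21.2, and 35.2 CPM (2.37, SE 0.32, adjusted p = 8.2e-06, edgeR). Each of these was separated between strains, with NZBWF1 mouse 1 the lowest of the hybrids.

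Oasl2, of the oligoadenylate synthetase family, was at 12.6, 7.09, and 9.39 CPM in NZB and 31.5, 43.6, and 48.7 CPM in NZBWF1 (2.22, adjusted p = 1.64e-07, edgeR quasi-likelihood test). Rtp4 (1.89), Cmpk2 (1.23), and Oas3 (1.48) were among the members of smallest p. Irf7, the factor that amplifies interferon production, was at 31.4, 32.1, and 27.5 against 59.5, 59.8, and 110 CPM (1.34, adjusted p = 0.00764, edgeR). Bst2 rose by 0.64. Mx1 (0.66, adjusted p = 0.105) and Usp18 (0.66, adjusted p = 0.22, edgeR) were not called.

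The starts of Ifit3, Isg15, Rsad2, and Oas3 are shown because these genes were called higher in monocyte-like sums and hold the core of the interferon-stimulated response element, which is GAAA, any 2 bases, and GAAA. RefSeq sequence is given 5′ to 3′ on the strand of the gene from 250 bases before to 50 after the start (GRCm38.p6), with capitals at matches to this core on either strand, where neighbouring matches may overlap. The positions are chr19:34583279-34583578 (plus strand) for Ifit3, chr4:156200769-156201068 (minus) for Isg15, chr12:26456403-26456702 (minus) for Rsad2, and chr5:120777610-120777909 (minus) for Oas3. Ifit3 held 2 matches, Isg15 3, and Rsad2 and Oas3 1 each.
Ifit3: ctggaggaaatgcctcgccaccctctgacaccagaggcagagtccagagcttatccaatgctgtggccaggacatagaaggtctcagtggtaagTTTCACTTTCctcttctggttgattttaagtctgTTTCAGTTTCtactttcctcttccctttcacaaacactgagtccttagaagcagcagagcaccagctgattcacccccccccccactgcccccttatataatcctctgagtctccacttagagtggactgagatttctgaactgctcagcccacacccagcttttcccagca
Isg15: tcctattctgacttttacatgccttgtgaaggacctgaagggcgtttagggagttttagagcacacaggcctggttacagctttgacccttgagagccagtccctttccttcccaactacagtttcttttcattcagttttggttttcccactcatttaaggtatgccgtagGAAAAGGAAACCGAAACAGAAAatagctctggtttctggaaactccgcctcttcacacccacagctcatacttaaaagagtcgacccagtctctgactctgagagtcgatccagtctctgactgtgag
Rsad2: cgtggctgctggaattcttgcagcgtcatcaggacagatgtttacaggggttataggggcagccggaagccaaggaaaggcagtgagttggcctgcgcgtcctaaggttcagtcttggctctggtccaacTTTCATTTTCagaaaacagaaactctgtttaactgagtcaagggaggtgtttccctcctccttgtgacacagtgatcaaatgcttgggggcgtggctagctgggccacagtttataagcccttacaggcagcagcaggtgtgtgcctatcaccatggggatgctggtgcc
Oas3: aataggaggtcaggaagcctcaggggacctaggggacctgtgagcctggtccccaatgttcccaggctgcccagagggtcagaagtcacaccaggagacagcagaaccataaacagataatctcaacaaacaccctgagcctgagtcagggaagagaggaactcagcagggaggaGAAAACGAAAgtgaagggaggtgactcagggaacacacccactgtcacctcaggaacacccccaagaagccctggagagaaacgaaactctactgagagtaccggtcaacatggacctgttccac

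Of the 21 genes of the list called higher, 16 had a promoter in the RefSeq table and 10 of these held the core, as did 3 of 6 with a promoter that were not called. Over all genes with a promoter, 3.99% of 27025 held it.

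A cluster of the monocyte-like class led by Cxcl10, Ifit3, Rsad2, Ifit1, and Irf7 held 1, 2, and 0 cells of the NZB mice and 7, 40, and 40 cells of the NZBWF1 mice. Its leading genes are largely the effectors themselves, so that leaving it out lowers their count by construction. Without it, 5 of 25 effector genes were called higher (Oasl2, Bst2, Cmpk2, Ifi27l2a, and Rtp4, read off after their values were seen), with a median of 0.28, beside 706 of 9375 of all genes called higher. The count was 10 of 27 with a minimum of 2000 UMIs and 1000 genes (447 of 8622 of all genes), 13 of 29 without the cluster led by Klf4 and F13a1 (238 of 7962 of all genes), and 16 to 23 when 1 mouse was left out. In the sums of the class, the cluster led by Klf4 and F13a1 held 46.7%, 66.6%, and 44.7% of monocyte-like cells in NZB and 29.9%, 26.1%, and 25.3% in NZBWF1. The cluster led by Fn1 and S100a4 held 33.4%, 23.6%, and 32.7% against 46.4%, 50%, and 43.7%. Values within the class thus compare different mixtures of these clusters. All genes called fell from 1636 to 561 without the Klf4 cluster, to 863 without NZB mouse 2, and to 965 without NZBWF1 mouse 2.

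In the other large classes no member of the list was called higher. In neutrophil-like sums 0 of 26 were higher and 2 lower (Isg15 and Ifit1), with a median of -0.24. Of all genes in these sums, 3.85% were called higher and 3.11% lower. In plasmacytoid dendritic-cell-like sums, where 2.18% of 8447 genes were called, 0 of 17 were higher and 3 lower, with Ifi44 and Parp14 among them. In B-cell-like sums, where 0.713% of all genes were called, 0 of 19 members were called. A cluster led by Iigp1, Usp18, and Isg15 matched plasmacytoid dendritic cells best but was left unnamed, so the plasmacytoid dendritic-cell-like sums lack it. It held 14, 10, and 6 NZB cells and 2, 3, and 6 NZBWF1 cells, and its part in the comparisons of classes was not tested. The difference between classes was tested with mouse as a block. The contrast was larger in monocyte-like than in neutrophil-like sums for 16 of 31 genes (2.47% of all 9971 genes were called in this test, 1.4% larger in monocyte-like sums), and larger than in plasmacytoid dendritic-cell-like sums for 18 of 29 (5.23% of all genes called, 3.09% larger in monocyte-like sums; edgeR quasi-likelihood test). Against B-cell-like sums it was larger for 4 of 31, namely Isg15, Ifi47, Ifi27l2a, and Rtp4 (3.1% of all genes called, 1.49% larger in monocyte-like sums).

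**Figure D5:**
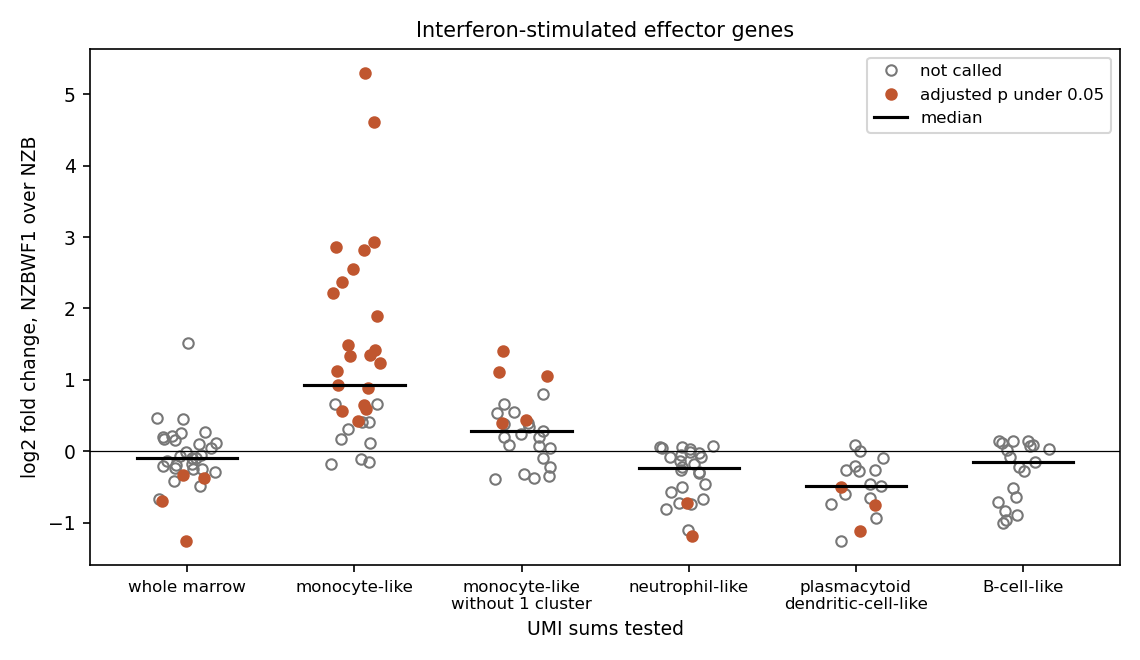
Log2 fold change of NZBWF1 over NZB for each interferon-stimulated effector gene tested, in whole-marrow sums and in the sums of 4 classes, with monocyte-like sums also drawn without the cluster led by these genes. Filled points are called, and the line is the median, which is 0.93 in monocyte-like sums, 0.28 without that cluster, and at or below -0.09 in the others.

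Cell division genes were lower in monocyte-like sums, where 12 of 20 were called lower and 0 higher (median -0.58), beside 8.82% of all genes called lower and 8.42% called higher. Cdk1, the kinase of mitotic entry, was at 195, 237, and 225 CPM in NZB and 138, 133, and 134 CPM in NZBWF1 (-0.73, adjusted p = 4.58e-06, edgeR quasi-likelihood test), and Mki67 and Top2a fell by 0.62 and 0.66 on the log2 scale. Without the cluster led by Klf4, 1 of 20, Ccna2, was called lower. The other genes of smallest p in these sums were Ly6c2 (2.01) and Mndal (2.87), which rose, and Spp1 (-1.89) and Ifi202b (-1.16), which fell. Of 13 complement and macrophage genes tested in these sums, 4 were higher and 2 lower. Those higher were C1qa (1.03), C1qb (1.04), Adgre1 (0.51), and the receptor Axl (1.87), which clears dying cells, and the complement regulator Cfp was among those lower (-0.42).

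Within B-cell-like sums 71 of 9953 genes were called (0.713%), 22 higher (0.221%) and 49 lower (0.492%). Ifitm1, a membrane protein that limits viral entry, was at 24.9, 21.5, and 19.1 CPM in NZB and 435, 417, and 615 CPM in NZBWF1 (4.42, SE 0.23, adjusted p = 3.2e-11, edgeR quasi-likelihood test). Ifitm2 was at 59.7, 102, and 108 against 892, 959, and 1100 CPM (3.33, SE 0.17, adjusted p = 3.2e-11, edgeR). For both genes every hybrid mouse lay far above every NZB mouse. Bcl2a1b, an inhibitor of cell death, was at 117, 47.0, and 67.0 against 10.0, 11.3, and 13.3 CPM (-2.73, adjusted p = 1.99e-06, edgeR), and Sapcd1 fell by 1.70 on the log2 scale. Bcl2a1b is 1 of several near-identical copies, so its count is uncertain. Bcl2a1b and Sapcd1 were among the leading genes of 1 sub-cluster of immature-or-mature-B-cell-like cells, and the class held different mixtures of clusters. The cluster led by Fcmr and H2-DMb2 held 38.6%, 17.4%, and 34.1% of B-cell-like cells in NZB and 18.5%, 7.8%, and 7.64% in NZBWF1. The cluster led by Rag1 held 10.4%, 0.741%, and 4.35% against 20.3%, 4.89%, and 17.7%. The part of this mixture in the calls was not tested. The count of 71 was 33 without NZB mouse 1, 22 without NZB mouse 3, and 41 without NZBWF1 mouse 3.

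In neutrophil-like sums 3 of 5 Ifitm genes were lower, beside 3.11% of all genes. The contrasts of Ifitm1 and Ifitm2 were larger in B-cell-like than in neutrophil-like sums by 3.97 and 4.49 on the log2 scale, in a test that called 2.14% of 10570 genes (0.738% larger in B-cell-like sums). Ifitm3 was at 1730, 1722, and 1330 CPM in NZB and 755, 618, and 706 CPM in NZBWF1 (-1.44, adjusted p = 2.4e-06, edgeR quasi-likelihood test), and Ifitm2 and Ifitm6 fell by 1.13 and 0.95 on the log2 scale. These CPM are not TMM-scaled, unlike the log2 fold changes, and the number of calls in these sums changed with total-UMI scaling. The chemokine-like gene Prok2 (-1.64) and Gadd45g (-1.31) fell as well, and AC139671.1 rose (6.59). Of granule genes, 4 of 17 were lower (Lcn2, Ngp, Lyz2, and Ly6g). The 607 calls became 397 without NZB mouse 2, 392 without NZB mouse 3, and 325 without NZBWF1 mouse 3.

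Plasmacytoid dendritic-cell-like sums had 95 genes higher (1.12%) and 89 lower (1.05%). Cd7, a surface protein of the immunoglobulin superfamily, was at 14.2, 11.9, and 16.7 CPM in NZB and 257, 232, and 168 CPM in NZBWF1 (3.87, SE 0.18, adjusted p = 8.15e-25, edgeR quasi-likelihood test). Ctse, an aspartic protease of endosomes, was at 3.56, 5.57, and 4.78 against 102, 61.6, and 77.8 CPM (3.92, adjusted p = 5.8e-16, edgeR). In whole marrow Ctse was not called (0.54, adjusted p = 0.0517, edgeR), although it was higher in 7 of 10 classes. Klk1 was at 2303, 2056, and 2150 against 775, 569, and 723 CPM (-1.70, adjusted p = 5.97e-17, edgeR). MHC class I genes had 5 of 13 lower and 0 higher, namely H2-K1 (-0.50), H2-D1 (-0.63), H2-Q6 (-1.22), H2-Q7 (-1.65), and the peptide transporter Tap1 (-0.56).

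Granulocyte-monocyte precursor-like sums had 186 of 8318 (2.24%, with 1.15% higher and 1.08% lower), with Ly6c2 higher (3.17) and Ifi202b (-1.66) and Ctsc (-1.09) lower. Erythroid-cell-like sums had 119 of 8798 (1.35%, with 0.955% higher and 0.398% lower), with Hist1h4i (5.39) and Ifitm2 (1.59) higher and the phosphodiesterase Mpped2 (-1.60) and Nudc (-0.59) lower. Conventional dendritic-cell-like sums had 62 of 2206 (2.81%, with 1.9% higher and 0.907% lower), with Cybb, the catalytic subunit of the phagocyte oxidase, higher (1.58) and Hsp90aa1 (-1.15) and Apobec3 (-1.33) lower. Macrophage-like, NK-cell-like, mast-cell-or-basophil-like, T-cell-like, and plasma-cell-like sums had 15, 15, 9, 9, and 6 called genes (0.851%, 0.407%, 0.831%, 0.314%, and 0.337% of those tested). The genes higher in NZBWF1 were 0.51%, 0.244%, 0.646%, 0.209%, and 0.225%, and those lower 0.34%, 0.163%, 0.185%, 0.105%, and 0.112%. Ifitm2 in plasma-cell-like sums was at 7.33, 13.8, and 29.3 against 998, 974, and 781 CPM (5.61, adjusted p = 2.9e-10, edgeR quasi-likelihood test). Of 632 NK-cell-like cells in the 6 mice, 166 belonged to a cluster whose leading genes held the T-cell genes Cd3g, Trbc2, Trbc1, and Cd8b1 beside Gzma and Ncr1. The part of this cluster in the NK-cell-like calls was not tested.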

How the data were processed

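Single-cell libraries of transcript 3' ends were made with 1 library per mouse. The deposited matrix holds UMI counts per gene and barcode for all 9 mice, made by the authors with Cell Ranger 3.1.0 and bcl2fastq 2.20 on mm10, per the submitters' processing notes. The sources used here do not say whether aggregation equalised depth. The number after the hyphen of a barcode was matched to the row of the aggregation list.

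Cells were clustered with scanpy 1.11.5 and leidenalg 0.10.2 (2000 variable genes, 30 components, 15 neighbours, resolution 2), with 1781 genes that differed between strains left out. The 42 clusters, and 13 clusters of the B lineage, were named by marker lists, and the result may differ from the names of the study. UMIs were summed per mouse, and per mouse and class, where a mouse with under 10 cells of a class was left out of the fit of that class. Sums and cell numbers were tested with edgeR 4.0.16 (quasi-likelihood, TMM for genes) in R 4.3.3 on all 9 mice other than those left out in this way, with DESeq2 1.42.0 as an alternative. Doublets were kept, and an alternative removed 1458 cells at 0.8% per 1000 cells. P-values were adjusted by Benjamini-Hochberg over all genes of a unit. Exact permutation tests used scipy 1.17.1 and were two-sided. Intervals are at a nominal 95%. Those of log2 fold changes assume a normal spread and are too narrow for so few mice. Those for counts of UMIs hold counting error only.

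In data simulated with 200 genes changed 2-fold, 145 were recovered in whole-marrow sums (12613 genes, 13 others called), 110 in B-cell-like, 147 in neutrophil-like, and 138 in monocyte-like sums. Named genes were the 12 of smallest p in each direction in whole-marrow sums without overlap of mice and at a mean of at least 20 CPM, the 3 in each direction in class sums, up to 4 called members of each gene list (or the 2 of highest level), members with a described role, and 9 genes the study discusses. The lists and members were chosen with earlier results of these data known. Promoter sequences and gene positions are of GRCm38, and 30934 of 31053 gene identifiers were matched to GENCODE. Some genes of the lists are not reported here by name.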

Additional observations from a re-analysis of the deposited data

Results flagged for a closer look

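Several genes differed between strains in 1 class of cells by more than in another class of the same mice, in a test of the difference of the log2 fold changes with mouse as a block (edgeR quasi-likelihood test). The contrast of Ifitm1 was larger in B-cell-like than in neutrophil-like sums by 3.97 (SE 0.23, adjusted p = 9.31e-19), and that of Ifitm2 by 4.49 (SE 0.22, adjusted p = 2.14e-12). Ifitm2 was higher in NZBWF1 in the former and lower in the latter.

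Among interferon-stimulated effectors, 16 had a larger contrast in monocyte-like than in neutrophil-like sums. The difference was 6.21 for Ifit3 (SE 0.73, adjusted p = 4.75e-05), 2.53 for Rtp4, 2.17 for Oasl2, 2.16 for Irf7, and 2.12 for Isg15 (adjusted p = 0.032, edgeR). These values include the small monocyte-like cluster that is led by the same genes.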

How the results depend on the processing

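Of 102 named genes 90 were called, and 37 of these kept their call in every alternative run. Calls were lost, for example, without B-cell-like and plasma-cell-like cells (41 genes), with at least 2000 UMIs and 1000 genes (28), with at most 5% mitochondrial UMIs (27), and without NZB mouse 2 (27). The cause was not tested. Classes other than B-cell-like, neutrophil-like, and monocyte-like cells were not simulated, so what their depth can show was not tested.

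No source says that replicate numbers pair the mice. Same-numbered mice correlated at 0.311, 0.359, and 0.0795 over 5663 genes, each best with its own number, which is a hint from the data and not the design. With the replicate as a block, 2186 genes were called in whole-marrow, 189 in B-cell-like, and 1322 in neutrophil-like sums, with 4 classes and 1 stage within the B lineage.

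The 1405 whole-marrow calls became 664 with at most 5% mitochondrial UMIs, 462 without B-cell-like and plasma-cell-like cells, 2130 without erythroid-like cells, and 575 to 1468 without 1 mouse. The 2919 calls in class sums became 1937 by DESeq2, 1662 with 2000 UMIs and 1000 genes, and 1666 to 3020 without 1 mouse. The 71 B-cell-like calls became 32 with 6 mice, 36 by total UMIs, 138 by DESeq2, 188 without a filter, 40 with 10 UMIs in every mouse, 30 with 2000 UMIs and 1000 genes, 18 with 5% mitochondrial UMIs, and 22 to 102 without 1 mouse. The 1636 monocyte-like calls became 980 by DESeq2, 822 with 2000 UMIs and 1000 genes, 561 without the cluster led by Klf4, and 863 to 1803 without 1 mouse. The 607 neutrophil-like calls became 998 by total UMIs, 312 with 10 UMIs in every mouse, 256 without the cluster with Ms4a1, and 325 to 624 without 1 mouse. Stages called within the B lineage were 0 to 1 without 1 mouse.

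The 2 classes called became 1 with 6 mice, 1 with 2000 UMIs and 1000 genes, 4 with 5% mitochondrial UMIs, 4 with strain genes kept in clustering, 0 with the total taken without B-cell-like and plasma-cell-like cells, 1 without the cluster with Ms4a1, 1 without a B sub-cluster led by granule genes, and 1 to 2 without 1 mouse. With the total taken without B-cell-like and plasma-cell-like cells, these classes were themselves not tested, so the B-cell-like call could not be kept in that run. The B-cell-like change was 1.84 by exact permutation (p = 0.1, the smallest possible). The plasmacytoid dendritic-cell-like change lost its call at -0.94 with 6 mice, -0.64 with TMM, -0.27 with 2000 UMIs and 1000 genes, -0.61 with the total without B-cell-like cells, -0.92 without the Ms4a1 cluster, -0.93 without the sub-cluster, and within -1.07 to -0.73 without 1 mouse. It was -0.95 by exact permutation, which cannot give a p under 0.1 here and so could not keep any call.

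Small changes turned sign. NK-cell-like cells were at 0.25 with TMM, 0.25 with 2000 UMIs and 1000 genes, 0.12 with strain genes kept, 0.29 with the total without B-cell-like cells, and -0.34 to 0.18 without 1 mouse. Monocyte-like cells were at 0.28 with TMM, 0.21 with 5% mitochondrial UMIs, 0.081 with strain genes kept, 0.30 with the total without B-cell-like cells, 0.0085 without the Ms4a1 cluster, 0.0027 without the sub-cluster, and -0.30 to 0.19 without 1 mouse. T-cell-like cells were at -0.51 with 5% mitochondrial UMIs and -0.17 to 0.88 without 1 mouse, and plasma-cell-like cells at -0.45 to 0.34. Within the B lineage, dividing pre-B-cell-like cells were at -0.12 with 5% mitochondrial UMIs and -0.30 to 0.35 without 1 mouse, pro-B-cell-like cells at 0.047 with resolution 1, 0.036 with strain genes kept, and -0.51 to 0.21, and unstaged cells at -0.28 to 0.78.

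In whole-marrow sums, log2 changes turned sign as follows. With 5% mitochondrial UMIs, Ifitm2 was at -0.033 (0.35 with all cells), Hbb-bs at 0.13, Top2a at -0.29, Mki67 at -0.13, mt-Co3 at -0.11, mt-Atp6 at -0.11, Pf4 at 1.09, and Itga2b at 0.0704. With 2000 UMIs and 1000 genes, Cd4 was at 0.11, Cd209d at 0.34, and mt-Atp6 at -0.0022. Without B-cell-like and plasma-cell-like cells, Hbb-bs was at 0.23, Top2a at -0.35, Mki67 at -0.25, and mt-Atp6 at -0.0198. Without erythroid-like cells Hbb-bs and Hba-a1 were both at 0.38. Hbb-bs was at 0.054 by total UMIs, and Top2a at -0.0069 by size factors and -0.0068 by DESeq2. Without 1 mouse, Hbb-bs lay within -0.33 to 0.25, Top2a within -0.15 to 0.18, Mki67 within -0.11 to 0.15, mt-Co3 within -0.0152 to 0.11, and mt-Atp6 within -0.0146 to 0.11. Summed with its copy, Ftl1-ps1 was at -0.39 and Ly6c1 at 1.57.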
